A study of Mus musculus with 14 samples.

Results

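The 35 genes described here belong to the cell division cycle and were measured in adipose tissue RNA of 14 mice, of which 7 were wild type (WT) and 7 were labelled as knockouts of Dectin-1 (KO). The genes were chosen by name, and each of the 35 names has 1 row in the deposited table, in which rows sharing a name were summed to 54955 names. The list holds 12 genes of DNA replication in S phase and 23 genes of mitosis. All mice were C57BL/6 and 21 weeks old, and no other allele, diet or agent is named. The label gives neither the fat depot nor the design of the knockout allele. The WT libraries carry replicate numbers 3 to 9 and the KO libraries 1 to 7, with 1 mouse to each library. Dectin-1 is the receptor for fungal β-glucan on myeloid cells, encoded by Clec7a. Clec7a stood at 4.02 to 10.5 TPM (median 6.33) in KO and at 4.1 to 18.9 TPM (median 12.5) in WT, so the groups overlapped, and a gene-level value does not show which exons were read. All values are in TPM, a share of transcripts scaled by gene length, so levels of different genes can be set side by side.

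Cells that enter the cycle first license replication origins with the MCM2-7 helicase and build up the enzymes that supply deoxynucleotides, and these genes are switched on together by E2F factors around the start of S phase. Genes of the spindle, the kinetochore and chromosome segregation follow in G2 and mitosis, when the complexes that repress them in resting cells are exchanged for activating ones. Mature adipocytes are largely postmitotic, while lymphocytes, macrophages and the precursors of fat cells in the same tissue can divide. In bulk RNA, fewer cells of a type and less RNA per cell cannot be told apart.

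Lymphocyte content was summarised in each library as the mean log2(TPM + 1) of 31 marker genes, 14 of B cells and 17 of T cells, called the lymphoid score. The score was 0.57 in WT 4, 0.94 in WT 7 and 1.22 in KO 7, and between 4.89 and 6.53 in the other 11 libraries. Summed B-cell markers came to 10.8 to 24.9 TPM in those 3 libraries and to 786 to 3052 TPM in the 11, and summed T-cell markers to 12.1 to 39.8 and 398 to 1452 TPM. Adipocyte markers, which check the labelled tissue, summed to 67289 to 71428 TPM in the 3 and 15468 to 62887 TPM in the 11. The comparison of KO with WT is therefore given below with and without KO 7, WT 4 and WT 7. Slopes on the lymphoid score are given for the 11, with a fit on all 14 libraries beside them. Slopes on other scores and correlations between genes are given for the 11 alone.

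Together the 35 genes took between 138 TPM (WT 4) and 701 TPM (WT 3) of each library. The KO libraries held 178 (KO 7), 306 (KO 2), 363 (KO 1), 449 (KO 6), 523 (KO 3), 543 (KO 5) and 667 TPM (KO 4). The WT libraries held 138 (WT 4), 171 (WT 7), 261 (WT 6), 367 (WT 8), 465 (WT 9), 480 (WT 5) and 701 TPM (WT 3). In each group the lowest sums belonged to libraries of low lymphoid score, and the ranges of KO and WT covered each other almost fully. The mitotic sums were spread more widely: they came to 42.8 to 52.6 TPM in the 3 lymphoid-poor libraries and 101 to 311 TPM in the other 11, against 95.1 to 135 and 160 to 390 TPM for the S-phase genes. Mitotic transcripts thus amounted to 31.6% to 45.5% of the S-phase transcripts in the 3 libraries and to 54.1% to 79.8% in the 11. Abundant genes weigh most in these sums: Stmn1 gave 26.9 of the 52.6 mitotic TPM in WT 7, and Pcna 56.0 of the 135 S-phase TPM in KO 7. With each gene weighted equally, as mean log2(TPM + 1), the S-phase minus mitotic difference overlapped. It was 1.55 to 1.91 in the 3 libraries and 1.39 to 1.84 in the 11, on a scale that understates the change of low genes.

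**Figure D1:**
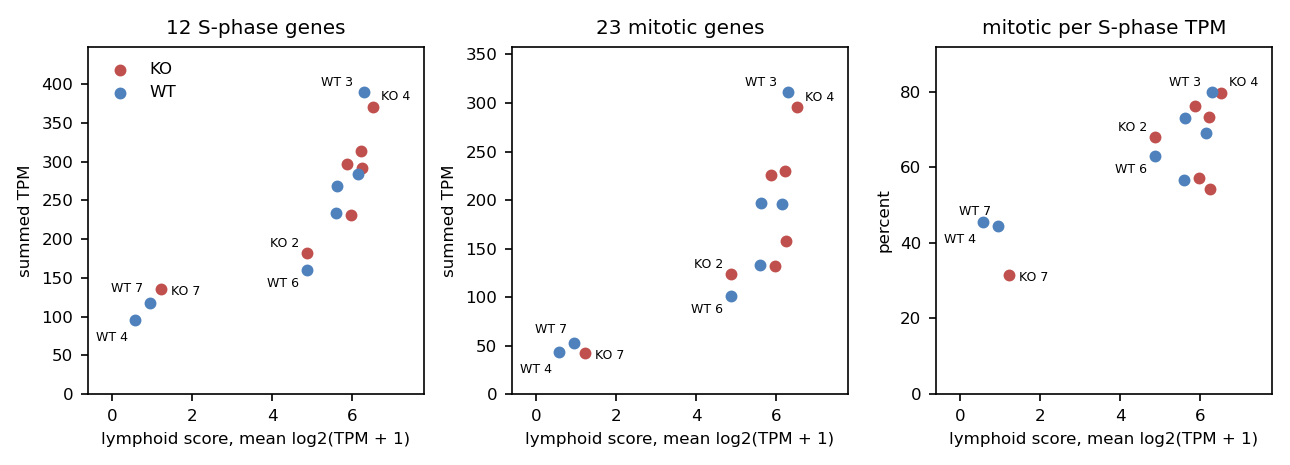
Summed TPM of the 12 S-phase genes (left), of the 23 mitotic genes (middle) and the mitotic sum as a percentage of the S-phase sum (right), each against the lymphoid score of the library, with 1 point per library (KO red, WT blue). KO 7, WT 4 and WT 7 lie apart at scores of 1.22 and less, with the lowest values in all 3 panels, and WT 3 and KO 4 have the highest sums.

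Pcna, the sliding clamp of the DNA polymerases and the most abundant gene of the list, was at 56.0 to 109 TPM in KO (median 85.2) and at 37.1 to 97.5 TPM in WT (median 76.6). Of the helicase subunits, Mcm3 had the highest mean over the 14 libraries (29.0 TPM) and Mcm2 the lowest (11.2 TPM), with Mcm7 at 26.1, Mcm6 at 16.6, Mcm5 at 15.1 and Mcm4 at 12.9 TPM. The 6 subunits form 1 ring in equal numbers, but their transcripts were spread differently over the libraries. Mcm5 was at 1.36 to 3.29 TPM in the 3 lymphoid-poor libraries and at 10.04 to 30.4 TPM in the other 11, whereas Mcm7 was at 14.8 to 17.6 and 20.7 to 44.7 TPM. Mcm2 stood at 2.12 to 2.78 against 4.62 to 24.7 TPM, Mcm3 at 9.05 to 11.6 against 20.5 to 51.8 TPM and Mcm6 at 3.72 to 6.56 against 7.86 to 28.8 TPM. For these 5 subunits the 3 libraries lay below all 11, while Mcm4 overlapped (4.94 to 7.87 against 5.28 to 21.98 TPM). On the opposite strand, Mcm7 overlaps Cops6 (up to 147 TPM) and Ap4m1 (up to 18.2 TPM) in the GENCODE M21 annotation, and the handling of strand is not given in the sources used here, so reads of the 3 genes cannot be told apart. In the same way Cdc20 overlaps Elovl1 (up to 58.1 TPM), Kif20a Cdc23 (32.0 TPM), Ccna2 Exosc9 (21.6 TPM), Tk1 Afmid (9.72 TPM), Cdca8 9930104L06Rik (9.15 TPM) and Nusap1 Oip5 (3.22 TPM).

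The enzymes of deoxynucleotide supply differed in whether all 3 lymphoid-poor libraries lay below the 11. Rrm2, the cell-cycle-regulated subunit of ribonucleotide reductase, was at 0.97 to 2.0 TPM in the 3 lymphoid-poor libraries and 2.19 to 19.2 TPM in the 11, and Tk1, the thymidine kinase of the salvage route, at 1.66 to 3.0 and 6.6 to 19.6 TPM. Rrm1, the large subunit of the same reductase, was at 7.52 to 14.5 and 12.6 to 30.5 TPM, and Tyms, the thymidylate synthase, at 7.34 to 13.9 and 9.48 to 16.4 TPM. The ranges of Rrm2 and Tk1 did not overlap, and those of Rrm1 and Tyms did. KO 7 alone reached into the range of the 11 for both, with 14.5 TPM of Rrm1 and 13.9 TPM of Tyms. WT 4 and WT 7 lay below the 11, with 7.52 and 9.22 TPM of Rrm1 and 7.45 and 7.34 TPM of Tyms. Ccne1, the cyclin that drives entry into S phase, was at 1.82 to 2.27 TPM in the 3 libraries and 3.23 to 8.33 TPM in the 11.

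Among the cyclins of the list and Cdk1, the kinase that starts mitosis, Cdk1 had the highest mean (11.7 TPM). Below it came Ccnb2 at 5.51, Ccne1, the cyclin of S-phase entry, at 5.01, Ccna2 at 3.99 and Ccnb1 at 3.18 TPM. Ccnb2 was at 0.47 TPM in KO 7 and 0.81 TPM in both WT 4 and WT 7, and at 3.51 to 11.9 TPM in the other libraries. Ccnb1 was at 0.23 to 0.53 against 1.33 to 6.85 TPM and Ccna2 at 0.41 to 1.10 against 1.86 to 8.69 TPM. The partner kinase overlapped: Cdk1 was at 5.65 TPM in WT 4, above the 4.98 TPM of WT 6. The table also holds a Ccnb2 pseudogene at up to 2.56 TPM, so the split of reads between the 2 copies is uncertain.

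The chromosomal passenger complex, which corrects faulty attachments of chromosomes to the spindle, has 3 members in the list, Birc5 (survivin) at a mean of 7.61 TPM, Cdca8 (borealin) at 6.47 and the kinase Aurkb at 4.16 TPM. Its scaffold Incenp, outside the list, was at 9.16 TPM. Birc5 was at 0.42 to 1.53 TPM in the 3 lymphoid-poor libraries and 4.78 to 17.1 TPM in the 11, and Aurkb at 0.35 to 0.90 and 2.28 to 9.98 TPM. Plk1, a kinase of mitotic entry and spindle assembly, was at 0.39 to 0.65 and 2.22 to 8.49 TPM. Aurka, the centrosomal Aurora kinase, overlapped, at 1.19 to 2.07 TPM in the 3 libraries and 2.05 to 7.34 TPM in the 11. Bub1b, of the spindle checkpoint, was at 0.50 to 0.91 and 1.43 to 7.02 TPM, while its relative Bub1 stayed low and overlapped, at 0.11 to 0.31 and 0.25 to 1.89 TPM.

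Of the centromere proteins in the list only Cenpa, the histone variant that marks the centromere, was abundant, at 2.85 to 4.09 TPM in the 3 libraries and 7.44 to 29.0 TPM in the 11. The large kinetochore proteins Cenpe and Cenpf did not exceed 2.52 and 2.09 TPM in any library. Bub1, Cenpe and Cenpf reached 1 TPM in 6, 5 and 3 libraries, short of the 7 asked for, and were left out of the tests, which leaves 32 genes.

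Stmn1, a microtubule-destabilising protein of dividing cells, was the most abundant mitotic gene of the list, at 19.7 to 78.2 TPM in KO (median 42.1) and 15.5 to 91.4 TPM in WT (median 40.1). Its level in the 3 lymphoid-poor libraries, 15.5 to 26.9 TPM, stayed well above 0 although it lay under the 38.7 to 91.4 TPM of the others. The other spindle genes were far lower, with means over the 14 libraries of 2.89 TPM for Tpx2, which nucleates spindle microtubules, 2.54 TPM for Nusap1, 2.34 TPM for the kinesin Kif20a and 1.52 TPM for the kinesin Kif11. Cdc20, which activates the anaphase-promoting complex, was at 1.06 to 1.3 TPM in the 3 libraries and 4.03 to 15.1 TPM in the 11. Ube2c, the ubiquitin-conjugating enzyme of that complex, was at 2.84 to 6.51 and 8.68 to 26.8 TPM. On the opposite strand Ube2c overlaps Tnnc2, a skeletal muscle gene that reached 3782 TPM, and muscle markers summed to between 26.2 and 28039 TPM per library, so the Ube2c values are uncertain in muscle-rich libraries.

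Top2a and Mki67 are the usual markers of dividing cells. Top2a, the topoisomerase that untangles replicated chromosomes, was at 0.56, 0.98 and 1.16 TPM in KO 7, WT 4 and WT 7, and at 3.71 (WT 6) to 23.8 TPM (KO 4) in the other libraries. Mki67, which coats mitotic chromosomes, was at 0.16 to 0.29 TPM in the 3 libraries and 0.79 to 5.18 TPM in the 11. In KO, Mki67 was at 0.28, 1.65, 2.10, 3.39, 3.92, 4.20 and 5.18 TPM, and in WT at 0.16, 0.29, 0.79, 1.16, 1.53, 3.52 and 4.77 TPM. The KO values sit somewhat higher, but each group spans most of the range of the other.

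**Figure D2:**
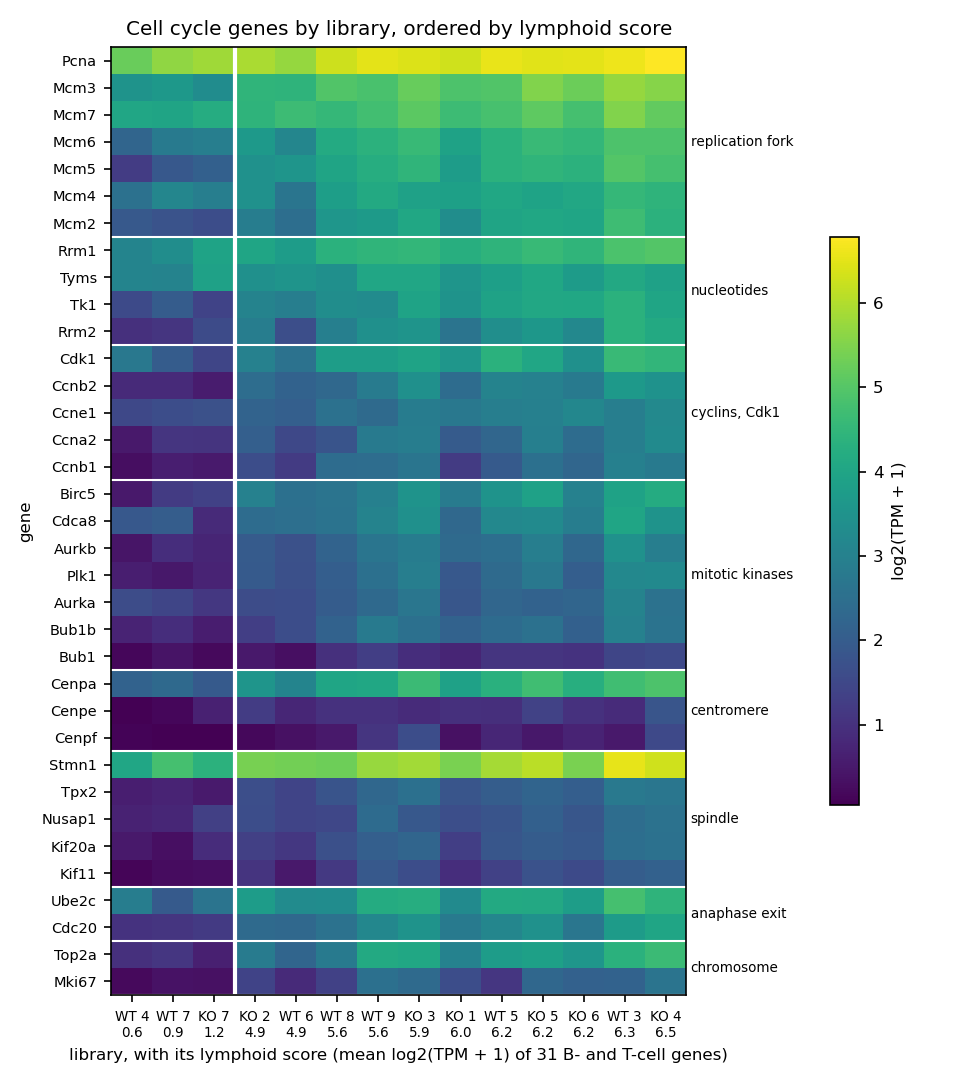
Level of each of the 35 genes (rows, grouped by role) in each of the 14 libraries (columns, ordered by lymphoid score, lowest at the left), as log2(TPM + 1) on the colour scale. WT 4, WT 7 and KO 7, left of the white line, are dark for nearly all genes, while Pcna and Stmn1 stay bright in every column.

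Taken over the tested genes of the list, 26 of 32 had all 3 lymphoid-poor libraries below all of the other 11, which 13.7% of the 14719 genes tested showed too. These were 8 of the 12 S-phase genes and 18 of the 20 mitotic genes tested. The 6 that overlapped were Aurka, Cdk1, Mcm4, Pcna, Rrm1 and Tyms. Since 1 TPM in 7 libraries can be reached through the 11 alone, the count was also taken over all 35 genes, of which 28 did not overlap. The matching share over all names without the filter was not computed, so the 28 cannot be set against a background. No test was made of this grouping.

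As a shared feature that the choice of genes did not use, the promoters were searched for sequence motifs known from cell-cycle genes, in the RefSeq table of GRCm38.p6 that holds 250 bases before to 50 after each transcription start. Promoters were found for 29 of the 35 genes, 11 S-phase and 18 mitotic; none was matched for Stmn1, Mcm4, Kif20a, Tpx2, Aurkb and Ccna2. The motifs were the cell cycle homology region (CHR, TTTGAA), at which the repressor and activator complexes of G2/M genes bind, the CCAAT box bound by NF-Y, and 4 forms of the E2F site, each on both strands. The E2F forms were TTTGGCG and TTTCCCG together with TTTCGCG and also TTTGCCG. Matches that share letters were each counted, as with 2 E2F forms on opposite strands in Mcm6. The CHR letters occurred in the promoters of 13 of 18 mitotic genes (72.2%) and 1 of 11 S-phase genes (9.09%, Mcm2), against 17.9% of all 32851 promoters and 12.5% of the 13525 of tested genes. CCAAT occurred in 16 of 18 mitotic and 8 of 11 S-phase genes, against 37.4% of all promoters. All 14 genes with CHR letters also had a CCAAT box, a pair that 6.95% of all promoters held. An E2F form occurred in 4 of 18 mitotic and 4 of 11 S-phase genes (Mcm3, Mcm5, Mcm6 and Mcm7), against 6.7% of all promoters and 10.3% of those of tested genes. A match describes the letters only, and a window without one says nothing of what binds there.

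**Figure D3:**
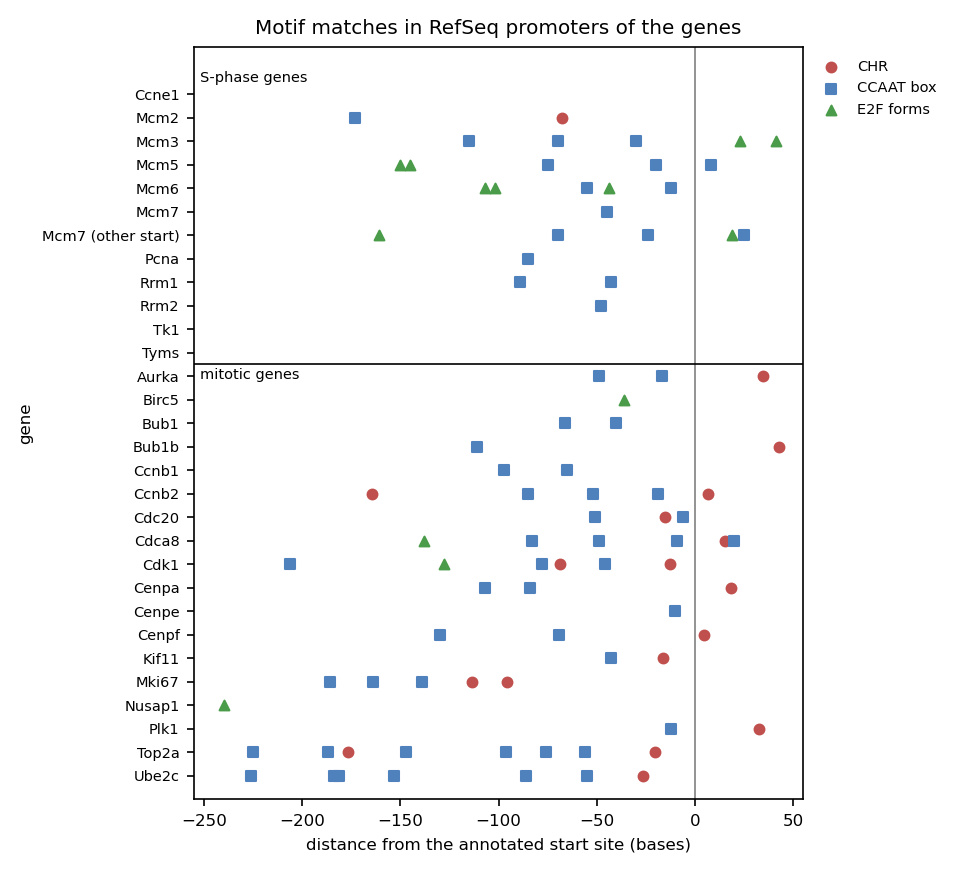
Positions of the CHR, CCAAT and E2F letters in the promoter windows of the 29 genes (rows), in bases from the transcription start. Mcm7 has 2 annotated starts, and marks stand at the middle of a match. CHR marks lie in the rows of 13 mitotic genes and Mcm2, 12 of the 13 within 40 bases of the start, and E2F marks in 4 genes of each kind.

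The promoters of 6 genes are printed to show these patterns, 5′ to 3′ on the strand of the gene, with every match to a searched motif in capitals. Top2a (chr11:99024140-99024439, minus strand) and Ccnb2 (chr9:70421505-70421804, minus strand) carry CHR letters near the start behind several CCAAT boxes. Cdk1 (chr10:69352863-69353162, minus strand) carries all 3 kinds. Mcm2 (chr6:88898731-88899030, minus strand) is the S-phase gene with CHR letters, and Mcm6 (chr1:128359656-128359955, minus strand) has E2F forms and no CHR. Tyms (chr5:30073576-30073875, minus strand), the gene with the smallest slope on the lymphoid score in the fit given below, has none of the letters searched. Tk1 (slope 0.78 ± 0.14, SE) and Ccne1 (0.64 ± 0.11) have none of them either, and both rose at an adjusted p under 0.05 in limma.
Top2a: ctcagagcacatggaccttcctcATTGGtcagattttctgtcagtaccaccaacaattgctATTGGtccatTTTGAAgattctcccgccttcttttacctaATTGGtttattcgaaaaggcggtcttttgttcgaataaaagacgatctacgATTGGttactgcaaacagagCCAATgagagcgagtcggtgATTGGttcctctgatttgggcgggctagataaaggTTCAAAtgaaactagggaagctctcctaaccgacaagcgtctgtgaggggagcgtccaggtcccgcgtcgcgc
Ccnb2: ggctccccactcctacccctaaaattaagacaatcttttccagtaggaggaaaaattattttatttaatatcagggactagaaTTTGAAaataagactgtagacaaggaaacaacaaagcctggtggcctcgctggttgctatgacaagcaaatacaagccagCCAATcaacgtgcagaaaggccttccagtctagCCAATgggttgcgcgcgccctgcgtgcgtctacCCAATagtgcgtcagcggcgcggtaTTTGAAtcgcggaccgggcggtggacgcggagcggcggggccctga
Cdk1: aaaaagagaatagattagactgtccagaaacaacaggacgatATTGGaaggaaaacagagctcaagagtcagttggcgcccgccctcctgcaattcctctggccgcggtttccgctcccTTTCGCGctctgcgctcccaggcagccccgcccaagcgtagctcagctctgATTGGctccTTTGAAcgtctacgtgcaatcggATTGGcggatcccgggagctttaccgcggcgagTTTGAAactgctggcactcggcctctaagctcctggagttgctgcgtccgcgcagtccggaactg
Mcm2: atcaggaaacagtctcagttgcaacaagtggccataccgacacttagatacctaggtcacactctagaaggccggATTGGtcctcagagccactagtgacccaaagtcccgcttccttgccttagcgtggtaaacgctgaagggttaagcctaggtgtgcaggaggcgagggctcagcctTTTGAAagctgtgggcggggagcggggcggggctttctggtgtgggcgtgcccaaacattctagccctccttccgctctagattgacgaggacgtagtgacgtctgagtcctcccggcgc
Mcm6: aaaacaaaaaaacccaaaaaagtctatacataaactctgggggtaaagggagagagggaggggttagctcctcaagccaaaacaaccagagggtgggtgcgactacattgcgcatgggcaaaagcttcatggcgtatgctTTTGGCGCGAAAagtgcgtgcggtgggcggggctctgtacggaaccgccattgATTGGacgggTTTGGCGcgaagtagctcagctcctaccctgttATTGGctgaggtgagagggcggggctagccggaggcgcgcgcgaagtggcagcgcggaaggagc
Tyms: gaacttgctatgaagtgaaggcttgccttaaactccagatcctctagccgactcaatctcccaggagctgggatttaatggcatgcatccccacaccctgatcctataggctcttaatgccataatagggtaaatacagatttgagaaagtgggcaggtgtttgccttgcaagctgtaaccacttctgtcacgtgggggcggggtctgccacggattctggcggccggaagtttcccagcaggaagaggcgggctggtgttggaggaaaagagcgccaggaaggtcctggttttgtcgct
Positions count from the annotated start to the first letter of a match. In Top2a the CHR letters nearest the start lie at -23, with CCAAT boxes at -58, -78 and -98, and in Cdk1 they lie at -15. The E2F forms of Mcm6 lie at -47, -105 and -110. Of the 13 mitotic genes with CHR letters, 12 had them within 40 bases of the start, and in Mki67 the nearest lay at -98.

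The question of the study design is how the KO libraries differ from the WT libraries, and limma was run over all tested genes. None of the 32 genes changed at an adjusted p under 0.05, where 3 of all 14719 genes did (0.0204%). None had an unadjusted p under 0.05 either, where 11.4% of all genes did. No gene of the list had KO libraries that lay all above or all below the WT libraries, which 0.319% of genes tested showed. The KO mean of log2(TPM + 1), the scale of the fit, was nevertheless the higher one for 30 of the 32, where 54.6% of all genes had a higher KO mean. The mean in TPM itself was lower in KO for Cdk1 (11.5 against 11.8 TPM), Bub1b (3.36 against 3.48 TPM), Cdca8 (6.35 against 6.60 TPM) and Aurka (3.37 against 3.47 TPM). The median difference was 0.32 on the log2(TPM + 1) scale (0.34 for S-phase and 0.30 for mitotic genes), against 0.04 over all genes, with a range from -0.09 (Cdca8) to 0.65 (Birc5) and adjusted p from 0.58 to 1.0.

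The largest differences belonged to Birc5, Mki67 and Ccna2. Birc5 was at 9.06 ± 5.24 TPM in KO and 6.16 ± 4.88 TPM in WT (SD, n = 7 each), a difference of 0.65 ± 0.53 (SE) in log2(TPM + 1) with a limma adjusted p of 0.65. Mki67 was at 2.96 ± 1.69 and 1.75 ± 1.74 TPM, a difference of 0.61 ± 0.41 (SE). Ccna2 was at 4.79 ± 2.64 and 3.18 ± 2.39 TPM, a difference of 0.54 ± 0.41 (SE). In each case the SD within a group was larger than the difference between the means.

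Group differences of the list moved with the lymphoid-poor libraries, of which WT holds 2 and KO 1. With KO 7, WT 4 and WT 7 left out, 24 of 32 genes had the higher mean of log2(TPM + 1) in KO, where 7118 of all 14719 did. The median difference was 0.10, against -0.012 over all genes, and no gene of the 14719 was called by limma. At an unadjusted p under 0.05, 473 had a higher and 1030 a lower KO mean, none of them of the list. With the lymphoid score as a covariate over all 14 libraries, 16 of 32 were higher in KO, where 7070 of all 14719 were. The median difference was 0.0018, against -0.011 over all genes, and 28 genes were called, none of the list. Mki67 (0.30 ± 0.24, SE) and Ccna2 (0.22 ± 0.22) then had the largest positive and Cdca8 (-0.40 ± 0.24) and Cdk1 (-0.38 ± 0.25) the largest negative values. The B-cell and T-cell markers themselves had a higher KO mean for 14 of 14 and 17 of 17 genes, with none called.

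**Figure D4:**
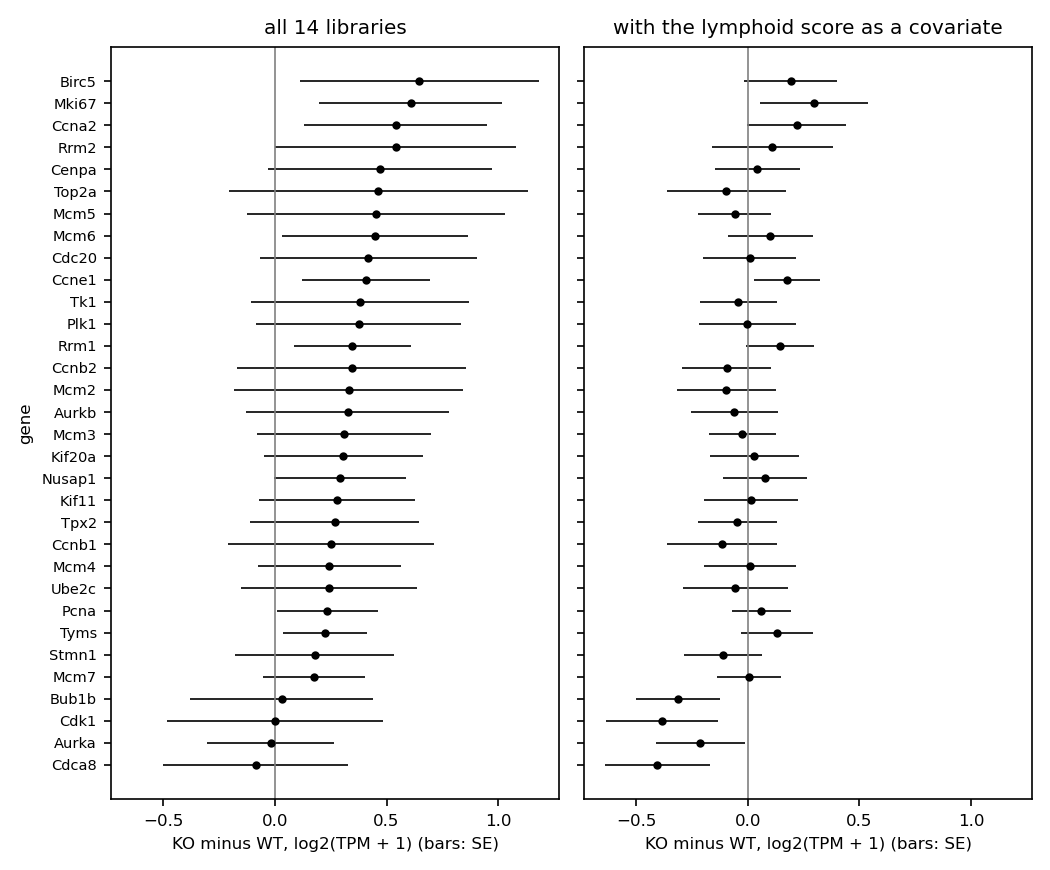
KO minus WT difference in log2(TPM + 1) for the 32 tested genes, ordered by size, with bars of 1 standard error, over all 14 libraries (left) and with the lymphoid score as a covariate (right). At the left 30 points lie above 0, with a median of 0.32; at the right 16 do, and no gene passed the limma threshold in either panel.

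The relation to lymphoid content was fitted in the 11 lymphoid-rich libraries, so that the 3 that stand apart could not set it, with genotype in the model. A slope of 1 means that a gene about doubled where the mean marker doubled. All 32 slopes were above 0, and 27 genes rose with the score at an adjusted p under 0.05 in limma, where 28.1% of the 14688 genes outside the score rose, 4.32% fell and 68.3% had a slope above 0. The median slope was 0.69 for the list and 0.21 over all genes, whose upper quartile was 0.48. With all 14 libraries in the fit, the median slope of the list was 0.33. Of the list 31 genes then rose, where 4394 of all genes did.

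The steepest of the list were Top2a (1.08 ± 0.26, SE, adjusted p = 0.0098), Mcm2 (1.08 ± 0.17, adjusted p = 0.00094), Rrm2 (1.03 ± 0.27, adjusted p = 0.014) and Cdk1 (1.01 ± 0.18, adjusted p = 0.0022). All 7 licensing and fork genes rose, from 0.43 for Mcm7 to 1.08 for Mcm2, and so did all 6 tested kinases, passengers and checkpoint genes, from 0.63 for Aurka to 0.78 for Bub1b. Of the deoxynucleotide enzymes 3 of 4 rose, of the cyclins and Cdk1 4 of 5, and of the spindle genes 4 of 5. Cenpa had a slope of 0.88 ± 0.16. The 5 genes that did not pass were Mki67 (0.61 ± 0.27), Ccnb1 (0.73 ± 0.27), Ube2c (0.55 ± 0.23), Nusap1 (0.47 ± 0.20) and Tyms (0.33 ± 0.14), with adjusted p from 0.057 to 0.10. By role the medians were 0.74 for S-phase and 0.69 for mitotic genes.

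Within the 11 libraries the range of the score was set by few libraries. KO 2 and WT 6 shared the lowest score, 4.89, and WT 3 and KO 4 had the highest sums of the 35 genes. Leaving out KO 2 left 14 genes of the list called, leaving out WT 6 14, leaving out WT 3 15 and leaving out KO 4 17, and each other single library left 22 to 29. The calls over all genes moved too: 2103 to 4485 of the 14688 genes rose with 1 library left out, against 4131 with all 11. With KO 2 and WT 6 both left out, none of the 32 was called, against 0.851% of all genes. All 32 slopes stayed above 0 nevertheless, where 6944 of the 14688 genes had one above 0. Their median was 0.76, against -0.037 over all genes. Of the 32, 18 had an unadjusted p under 0.05, where 1604 of the 14688 rose at that level. The number of calls thus depended on single libraries, while the direction held in each of these fits. Quantile normalization left 13 and median-ratio scaling 15 of the 32 called, where 15.6% and 16.4% of all genes rose.

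**Figure D5:**
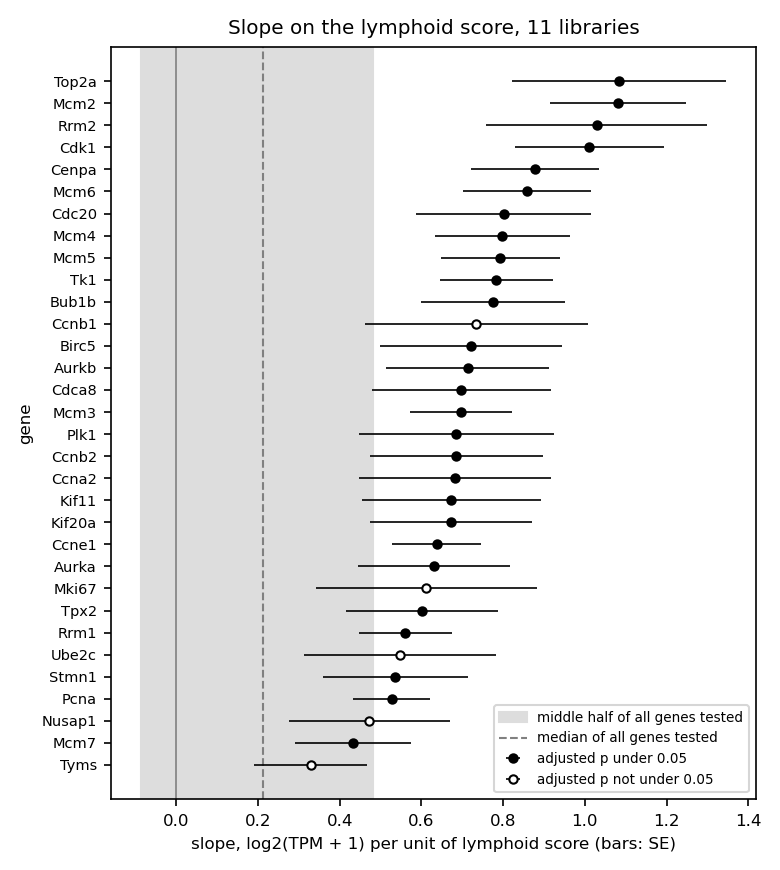
Slope of each tested gene on the lymphoid score over the 11 lymphoid-rich libraries, in log2(TPM + 1) per unit of score, with bars of 1 standard error, filled where limma called the gene. The dashed line marks the median slope of all genes, 0.21, and the band runs between their quartiles, -0.09 and 0.48; all 32 points lie right of the dashed line.

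Scores of other cells were related to the list in the same way. On the T-cell score alone 28 of 32 rose, where 26.1% of all genes did, and on the B-cell score alone 5 rose, where 11.6% did. The B and T scores themselves ran together over the 11 libraries (r = 0.74, a description). With both in 1 fit, all 32 T-cell slopes were above 0, as were 10115 of the 14688 over all genes. Of the list 1 gene, Cdk1, rose at 1.07 with a limma adjusted p of 0.019, where 1.65% of all genes rose. In the same fit 21 of 32 B-cell slopes were above 0, as were 8105 of the 14688 over all genes. None of the list was called on the B-cell score there, where 0.0681% of genes were. On the macrophage score 19 of 32 rose, where 26.9% of all genes did, and on the score of germinal centre genes 7 rose, where 18.4% did. All 32 slopes were above 0 on both, as were 11788 of 14706 and 11128 of 14715 over all genes. All 32 slopes on the adipocyte score were below 0, as were 7922 of 14705 over all genes. None of the 32 was called, where 6.04% of genes rose and 1.24% fell. No gene of the list was called on the scores of adipose progenitors or endothelium, where 0.938% and 0.177% of genes rose. Slopes on these 2 scores were above 0 for 30 and 16 of the 32, and for 11887 of 14707 and 11428 of 14709 over all genes. These scores share libraries and are not independent of each other, and none was compared with another by a test.

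Markers of other cells that the samples could hold were read beside these values. Of the germinal centre list, whose sum was 21.5 to 63.2 TPM over the 11 libraries and 29.9 to 46.4 TPM in the 3, Bcl6 was the most abundant; it is also made outside germinal centres. Of the thymocyte list, Dntt did not exceed 1.88 TPM, and the list's sum rested on Cd1d1. Male germ cell genes summed to at most 15.9 TPM and epididymal genes to at most 0.78 TPM, with Lcn5, Lcn9, Defb21, Adam7 and Spag11b at or under 0.01 TPM everywhere. Bone marrow myeloid genes, led by Prtn3, summed to 90.1 to 142 TPM in the 3 lymphoid-poor libraries and 7.08 to 134 TPM in the 11. In KO 7, 48.8 of the 116 TPM were Ltf, which did not exceed 0.69 TPM in any other library. Keratinocyte genes summed to 1.63 to 4.66 TPM in the 3 and 3.43 to 11.99 TPM in the 11. Of these Dsc3, a desmosomal cadherin, was listed at 0 in each of the 3 and was at 1.10 to 9.96 TPM in the 11. Its slope on the lymphoid score was 1.253 ± 0.19 (SE, limma adjusted p = 0.00083). Krt10, the other keratinocyte gene tested, overlapped, at 1.33 to 4.07 TPM in the 3 and 1.45 to 4.56 TPM in the 11. The slope of Krt10 was -0.0087 ± 0.21 (SE, limma adjusted p = 0.98). Dsg3 was at or under 0.01 TPM everywhere. Plasma cell genes, led by Xbp1, summed to 158.7 to 289 TPM in the 3 and 229.5 to 553.5 TPM in the 11, and 2 of 6 tested rose and 1 fell on the lymphoid score. Erythroid genes, led by Tfrc, summed to 16.8 to 25.1 TPM in the 3 and 19.5 to 31.1 TPM in the 11, and 1 of 3 tested fell. The part of any of these cells in the levels of the list was not tested.

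Further cell-cycle genes outside the list were read in the fit on the lymphoid score, in which 28.1% of all genes rose. Of 30 further S-phase genes 18 rose with the lymphoid score and none fell, and of 38 further G2/M genes 27 rose and none fell, with median slopes of 0.48 and 0.62. Among the most abundant, Dnmt1, the maintenance DNA methyltransferase, rose at 0.86 ± 0.11 (SE, limma adjusted p = 0.00037), Slbp, which processes histone mRNA, at 0.53 ± 0.10, Hmgb2, a chromatin protein of dividing cells, at 0.81 ± 0.15, and Smc4, of the condensin complex, at 0.92 ± 0.22. Pttg1 (securin) and Cks1b, a subunit of cyclin-dependent kinases, were abundant and did not: Pttg1 was at 94.2 to 114 TPM in the 3 lymphoid-poor libraries and 64.9 to 122 TPM in the 11, with a slope of -0.22 ± 0.12, and Cks1b at 35.3 to 44.3 and 28.9 to 41.5 TPM, with a slope of -0.10 ± 0.11.

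Of 8 tested G1 cyclins and kinases 4 rose, among them Myc at 0.89 ± 0.15 and Ccnd1 at 0.82 ± 0.18. Ccnd3, the most abundant cyclin of the lists, was at 94.4 to 130 TPM over the 14 libraries with a slope of 0.12 ± 0.10. Of 15 inhibitors of the cycle 7 rose and 1 fell. Btg1 (0.77 ± 0.09), Btg2 (0.85 ± 0.12) and Trp53 (0.78 ± 0.09), which restrain division, rose too, beside a median of 0.69 for the list. Cdkn2c, an inhibitor of the G1 kinases, fell by 0.56 ± 0.17 and was at 248 to 293.5 TPM in the 3 lymphoid-poor libraries and 79.7 to 243 TPM in the 11. Of 13 tested E2F and DREAM regulators, some of which bind sites such as those searched above, 5 rose, including E2f4 (0.62 ± 0.10), E2f2 (0.69 ± 0.18) and Foxm1 (0.63 ± 0.17). None of these 5 further lists had a gene called between KO and WT by limma; at an unadjusted p under 0.05 they had 2, 0, 1, 1 and 0 genes, in the order given.

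Read as 1 set over the 11 lymphoid-rich libraries, the genes of the list ran together. The median of the correlations of a gene with each other member was highest for Tpx2 (0.91), Kif20a (0.91) and Top2a (0.90) and lowest for Ccne1 (0.70) and Mki67 (0.73), over 11 libraries that all genes share. These are descriptions across libraries that also share the spread in lymphoid score, on which 68.3% of all genes had a slope above 0. The same correlations were not computed for genes outside the list, so no background stands beside them.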

How the data were processed

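RNA of adipose tissue was sequenced in 14 mice from TruSeq libraries of Trizol-extracted RNA, per the labels' protocols. The authors deposited TPM values per gene with 2 decimals, and in every library they add up to the total that defines this unit. Bowtie 0.12.2 and the builds mm8 and mm9 are named, without a role, in the submitters' processing notes. Which program gave the TPM values is not given in the sources used here. Depth is unknown, so no counting interval is given. Replicates are mice, and p-values measure the spread between them.

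Rows with the same name were summed. Genes at 1 TPM or more in 7 libraries were tested as log2(TPM + 1), a scale that understates the change of low genes, with limma 3.58.1 in R 4.3.3 (trend, robust prior, 2-sided). P-values were adjusted by Benjamini-Hochberg over all genes tested. The fits were tested on simulated data. The genes named are all 35 members, Clec7a and the most abundant genes of each further list; Ccnd1, E2f2, Foxm1, Incenp and Dsg3 were chosen after their values were seen. The members and lists were chosen with earlier results of these data known. Alternatives were other pseudocounts, filters, scalings, scores and left-out libraries.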

Additional observations from a re-analysis of the deposited data

Results flagged for a closer look

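Of 88 groups of 7 libraries looked at, 3 held a library whose gap to its nearest neighbour was large for the range of the group, and chance alone marks about 1 group in 20. WT 3 had 7.34 TPM of Aurka, where the next WT library had 4.12 TPM. WT 3 also had 44.7 TPM of Mcm7, where the next had 27.5 TPM. KO 7 had a lymphoid score of 1.22, where the next KO library had 4.89.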

How the results depend on the processing

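The values carry no read counts, so the precision of each is unknown, and 7 mice a group limit what can be called. No member was called between KO and WT under any alternative run.

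All 3 scalings moved the median of all genes by less than 0.1 in log2. Genes changed between KO and WT numbered 3, but 1 without a filter, 1 with rows as deposited, 19 with quantile normalization, 8 with median-ratio scaling, 6 with TPM rescaled without mitochondrial genes, 28 with the lymphoid covariate, 0 without KO 7, WT 4 and WT 7, and 0 to 6 with 1 library left out. Members with a higher KO mean of log2(TPM + 1) numbered 30 of 32, 16 of 17 with 1 TPM in all 14 libraries, and 16 of 32 with the covariate. The median member difference ran from 0.13 to 0.54 with 1 library left out (lowest without WT 4, highest without KO 7).

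Signs turned for the members named here; the cause was not tested. Cdk1 was at -0.013 and -0.0049 with pseudocounts of 0.1 and 0.5 and at -0.068 with quantile normalization, Bub1b at -0.077 with the latter, and Aurka at 0.017 without mitochondrial genes. With the covariate, values were -0.096 for Top2a, -0.12 for Ccnb1, -0.095 for Ccnb2, -0.38 for Cdk1, -0.0595 for Aurkb, -0.31 for Bub1b, -0.00197 for Plk1, -0.097 for Mcm2, -0.024 for Mcm3, -0.058 for Mcm5, -0.042 for Tk1, -0.056 for Ube2c, -0.046 for Tpx2 and -0.11 for Stmn1. Without KO 7, WT 4 and WT 7 they were -0.011 for Ccnb1, -0.087 for Cdk1, -0.19 for Bub1b, -0.0015 for Mcm5, -0.0071 for Ube2c and -0.00599 for Stmn1. With 1 library left out, Cdk1 ran from -0.23 to 0.33, Cdca8 from -0.23 to 0.22, Bub1b from -0.18 to 0.26, Aurka from -0.13 to 0.15, Stmn1 from -0.044 to 0.38 and Ube2c from -0.019 to 0.46.

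Whether the replicate numbers pair the mice cannot be told from these values, since KO 7, WT 4 and WT 7 share a low lymphoid score. Same-numbered KO and WT libraries correlated at 0.09, -0.68, 0.58, -0.08 and 0.78 for numbers 3 to 7. The best correlation of the same KO libraries with a WT library of another number was 0.12, 0.68, 0.49, 0.38 and 0.74. With the replicate block over these 10 libraries, and in the same libraries without it, 0 genes were called, 32 of 32 members were higher in KO, the median was 0.56, Cdca8 was at 0.065 and Aurka at 0.16.

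On the lymphoid score 4131 genes and 27 members rose. Members rising numbered 17 without a filter (3198 genes, with more genes tested), 13 with quantile normalization (2285 genes) and 15 with median-ratio scaling (2396 genes). They numbered 5 with B-cell genes alone (1699 genes), 31 with all 14 libraries (4394 genes), and 14 to 29 with 1 library left out (2103 to 4485 genes). In a fit added after the data were seen, without KO 2 and WT 6, they numbered 0 (125 genes). The joint fit of B and T scores was added then too. Every member slope stayed above 0 in these fits of the lymphoid score.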
